A study of Homo sapiens with 9 samples.

Results

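The endoplasmic reticulum (ER) and secretory pathway mRNAs described here are 48 listed genes of protein entry, folding, glycosylation and early transport in the ER. They were listed by name and function, with earlier results of these data known. All 48 were found among the 56349 genes matched in the files, and all 48 passed the filter on low counts that left 16181 genes for testing. By role they comprise 12 genes of the signal recognition particle (SRP) receptor, the translocon and its partners, 4 of the signal peptidase, 7 of the oligosaccharyltransferase, 6 chaperones and co-chaperones, 6 disulfide bond enzymes, 5 genes of glycoprotein folding and glucose trimming, 2 of ER-associated degradation and 6 cargo and retrieval receptors. The libraries were mRNA-seq of nuclear and cytoplasmic fractions of HEK293 cells, a human embryonic kidney line, which the methods call 293 T cells. The cells had received a control siRNA or siRNAs against both WTAP and KIAA1429, which the labels name Virilizer/WTAP RNAi. KIAA1429 is listed as VIRMA, and its product and WTAP are parts of the complex that writes N6-methyladenosine on mRNA. There were 3 control nuclear libraries, 1 control cytoplasmic library (replicate 2), 3 RNAi nuclear libraries and 2 RNAi cytoplasmic libraries (replicates 1 and 2), 9 in all. The further cytoplasmic replicates were not analysed here. Nothing in the labels says that replicates came from separate cultures, so the p-values measure the spread between these libraries. The 1 control cytoplasmic library has no spread of its own. In every comparison that uses it, including nucleus against cytoplasm in control cells, its spread was taken from the other groups.

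Most proteins that enter the secretory pathway carry a hydrophobic signal at or near their start. SRP binds this signal as it leaves the ribosome, docks with the SRP receptor and hands the ribosome to the Sec61 channel, so that the mRNA is translated on the ER membrane. Signal peptidase removes the signal, the oligosaccharyltransferase adds a glycan, and chaperones, lectins and disulfide isomerases fold the product. The ER membrane is continuous with the outer nuclear membrane. The comparison of fractions asks whether mRNAs translated on that membrane were found with the nuclei or in the cytoplasm, and the comparison of siRNAs asks whether this distribution changed. An mRNA inside the nucleus and an mRNA on ER membrane that stayed with the nuclei cannot be told apart in these libraries. The markers that the labels name for the western blots of the fractions were histone H3, ALYREF or SSRP1, and tubulin, and none of these marks the ER.

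The libraries held 11627403 to 19036141 estimated counts, and the control cytoplasmic library was the deepest. Levels are given in CPM (estimated counts scaled to a fixed library total) after TMM normalisation, a scaling between libraries that assumes most genes do not change. A gene was called higher or lower at an adjusted p (edgeR quasi-likelihood test, Benjamini-Hochberg over all 16181 genes) under 0.1 with a log2 fold change beyond 0.5. WTAP stood at 24.1, 27.6 and 23.0 CPM in the control nuclear libraries, 12.2, 14.3 and 15.6 CPM in the RNAi nuclear libraries, 37.5 CPM in the control cytoplasmic library, and 10.8 and 11.9 CPM in the RNAi cytoplasmic libraries. VIRMA stood at 13.6, 13.2 and 19.8 CPM against 9.18, 5.56 and 6.97 CPM in the nucleus and at 17.4 CPM against 4.21 and 4.05 CPM in the cytoplasm. Neither target overlapped between control and RNAi libraries in either fraction, and both were called lower, WTAP by −0.83 ± 0.13 (log2 fold change ± SE) in the nucleus and −1.72 ± 0.18 in the cytoplasm, and VIRMA by −1.08 ± 0.21 and −2.07 ± 0.32. Of 8 nuclear long non-coding RNAs tested, MALAT1 and NEAT1 among them, 6 were called higher in the nucleus in control cells and 6 in RNAi cells. Their summed level was 461 to 637 CPM in nuclear libraries and 137 to 204 CPM in cytoplasmic ones. The 13 mitochondrially encoded mRNAs, which a nucleus does not make, summed to 136924 to 276951 CPM in nuclear libraries and 112075 to 209516 CPM in cytoplasmic ones. Of the 6 genes listed as HEK293 markers 4 were tested, VIM, NEFM, PAX2 and CDH2. VIM (454.5 to 1447 CPM) and NEFM (95.55 to 264 CPM) were plainly present, while LHX1 and NEFL did not pass the filter. Of 6 markers of other cell types, ALB, PTPRC, CDH5 and KRT5 did not pass the filter, while COL1A1 and GFAP did. COL1A1 stood at 56.5 to 91.5 CPM. The levels of PAX2, CDH2 and GFAP are not given here.

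The secretory pathway mRNAs as a group held a larger share of the nuclear libraries than of the cytoplasmic ones. CPM gives levels relative to the other genes of a library, so the amount of these mRNAs in each fraction was not measured. The nuclear/cytoplasmic ratios given here are relative in the same way. The 48 mRNAs summed to 16412, 14026 and 15031 CPM in the control nuclear libraries and to 7292 CPM in the control cytoplasmic library. In RNAi cells they summed to 12923, 13545 and 13542 CPM in the nucleus and to 8569 and 8601 CPM in the cytoplasm. In RNAi cells, 28 members were called higher in the nucleus, which is 58.3% of them, where 32.9% of all genes tested were called higher. The members called lower were 4, which is 8.33%, where 24.9% of all genes were. In control cells, 29 members were called higher in the nucleus (60.4%, against 28.0% of all genes) and 3 lower (6.25%, against 22.7%). The median log2 fold change of nucleus against cytoplasm over the members was 0.65 in RNAi cells and 0.85 in control cells, beside 0.03 and 0.04 over all genes. The mean level of the members was high, with a median of 97.5 CPM against 10.5 CPM for all genes tested. Among the other 4060 coding genes at or above the lower quartile of the members' mean levels (36.8 CPM), 13.4% were called higher in the nucleus and 46.1% lower in RNAi cells, and 19.7% and 30.2% in control cells. This set was chosen after seeing the data. The members therefore lay on the other side from most coding genes of like abundance. The mitochondrially encoded mRNAs gave 2 higher and 2 lower in RNAi cells and 4 higher and none lower in control cells, and the part of other membrane-bound material in the members' result was not tested.

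The control and RNAi fraction comparisons share no library, but 1 fit of all 9 libraries gave both, with a shared scaling and estimate of spread. In both, 24 members were called higher in the nucleus. These include SEC63, at 0.581 ± 0.265 in control and 1.572 ± 0.231 in RNAi cells, and LMAN1. Their calls in control cells were kept in 1 and 3 of the 8 fits that each left out a library. The 24 are 85.7% of the members called higher in RNAi cells and 82.8% of those called higher in control cells, where the same shares over all genes were 64.9% and 76.0%. OST4 and TMED2 were called lower in both, which is 50% of the members called lower in RNAi cells and 66.7% in control cells. The same shares over all genes were 56% and 61.5%, so this overlap was near that of all genes.

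**Figure D1:**
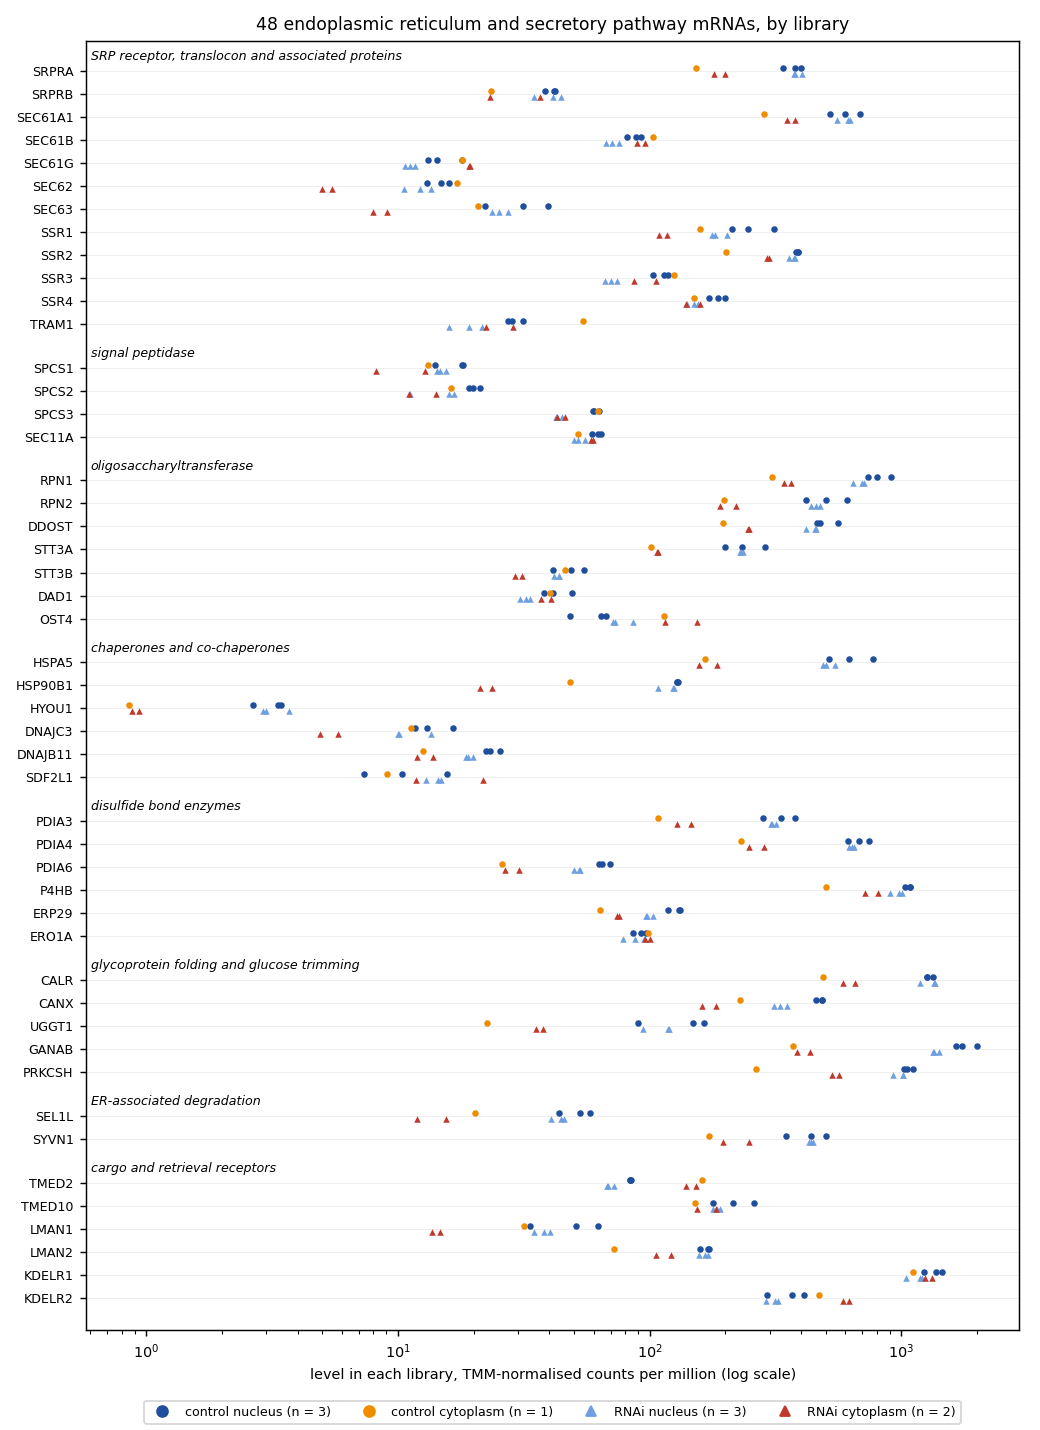
The level of each of the 48 mRNAs in each of the 9 libraries (x axis, TMM-normalised CPM, log scale), grouped by role; circles are control and triangles RNAi libraries, blue is nuclear and orange or red cytoplasmic. Blue symbols lie to the right of the orange and red ones for HSPA5 (488 to 769 CPM against 157 to 186 CPM), CALR and GANAB and to their left for TMED2, OST4 and KDELR2.

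The start of the coding sequence is shown for the members on which the results turn, since it holds the signal that directs a protein to the ER. Each line gives the first 60 coding bases from the start codon, 5′ to 3′ on the coding strand, of the most abundant coding transcript that the GRCh37 annotation places in full, with introns removed. Capitals mark adenine. The first 4 have the fewest adenines among the members, 2 each.
ERP29: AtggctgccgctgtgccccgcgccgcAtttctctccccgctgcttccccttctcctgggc
P4HB: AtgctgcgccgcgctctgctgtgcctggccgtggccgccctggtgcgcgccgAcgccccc
PDIA3: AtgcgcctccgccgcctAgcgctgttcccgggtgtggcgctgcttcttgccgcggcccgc
SDF2L1: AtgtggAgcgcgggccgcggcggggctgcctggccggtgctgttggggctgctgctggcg
These 4 encode soluble ER proteins with a cleaved signal peptide, and they lie in coding exons at chr12:112451270-112451329 (plus strand), chr17:79818288-79818347 (minus), chr15:44038738-44038797 (plus) and chr22:21996626-21996685 (plus).
The next 5 are rich in adenine and encode membrane proteins without a cleaved signal peptide.
SEC62: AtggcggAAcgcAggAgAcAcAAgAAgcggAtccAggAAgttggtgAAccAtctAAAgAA
SEC61A1: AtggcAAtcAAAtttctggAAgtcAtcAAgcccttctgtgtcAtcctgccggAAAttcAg
STT3A: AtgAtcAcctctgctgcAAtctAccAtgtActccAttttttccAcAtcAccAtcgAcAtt
SSR3: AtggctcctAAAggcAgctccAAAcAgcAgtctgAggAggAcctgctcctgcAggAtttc
SEC61G: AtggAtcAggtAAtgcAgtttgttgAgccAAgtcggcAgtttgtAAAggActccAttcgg
They hold 23, 16, 15, 15 and 15 adenines. The last 5 are members at the ends of the order by nuclear/cytoplasmic ratio in RNAi cells, the first 3 of them high and the other 2 low.
HSP90B1: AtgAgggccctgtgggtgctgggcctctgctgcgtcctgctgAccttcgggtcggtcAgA
GANAB: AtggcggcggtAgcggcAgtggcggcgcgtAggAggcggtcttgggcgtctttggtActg
SEL1L: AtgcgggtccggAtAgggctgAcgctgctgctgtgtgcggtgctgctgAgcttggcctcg
TMED2: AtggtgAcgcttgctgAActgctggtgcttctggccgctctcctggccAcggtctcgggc
OST4: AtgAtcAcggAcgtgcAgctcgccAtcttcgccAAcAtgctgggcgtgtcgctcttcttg
HSP90B1, SEL1L and TMED2 hold 5 adenines each, GANAB 6 and OST4 9.

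Over the 47 members with a usable coding transcript the median adenine content of the first 60 coding bases was 11.7%, beside 20% over 13225 coding genes tested and 20.9% over 30 proteasome subunits, which are translated in the cytosol. HYOU1 had no such transcript. Adenine made up at most 10% of this stretch in 21 members (44.7%) and in 14.3% of all coding genes. The 27 of these members known to carry a cleaved signal peptide ranged from 3.3% to 20% with a median of 8.3%. The 20 others, mostly membrane proteins that enter by an internal or tail anchor, ranged from 10% to 38.3% with a median of 17.5%. The low adenine content thus lay with the signal peptide genes. Across members the Spearman correlation of adenine content with the log2 fold change of nucleus against cytoplasm was −0.14 in RNAi cells and −0.36 in control cells (n = 47 genes, a description across genes that share libraries). Within the 27 signal peptide genes it was 0.35 and 0.24, so the sign was not the same within that group. Within the 20 others it was 0.01 and −0.30. Over all coding genes it was 0.01 and −0.20 and over the abundant coding genes −0.12 and −0.25, so a negative value in control cells was not particular to the members.

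**Figure D2:**
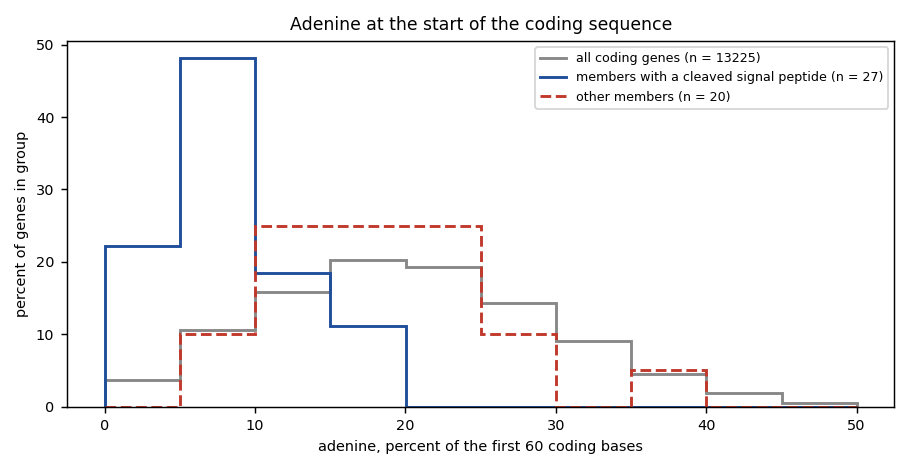
The share of genes (y axis, percent of each group) by the adenine content of the first 60 coding bases (x axis, percent, bins of 5); grey is all coding genes tested, blue the members with a cleaved signal peptide and dashed red the other members. The blue line ends at 20%, where the median of all coding genes lies.

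Among the SRP receptor, translocon and associated genes, 5 of 12 were called higher and 1 lower in the nucleus in RNAi cells, and 6 higher and 1 lower in control cells. SEC61A1, the pore of the translocon, measured 688, 522 and 596 CPM in the control nuclear libraries, 284 CPM in the control cytoplasmic library, 558, 614 and 628 CPM in the RNAi nuclear libraries, and 350 and 379 CPM in the RNAi cytoplasmic ones. All 6 nuclear libraries lay above all 3 cytoplasmic ones, and the log2 fold change was 1.09 ± 0.16 in control cells (adjusted p = 0.000556) and 0.72 ± 0.12 in RNAi cells (adjusted p = 0.00069). SRPRA, the subunit of the SRP receptor that binds SRP, was higher in the nucleus by 1.29 ± 0.14 in control and 1.02 ± 0.10 in RNAi cells. Its membrane anchor SRPRB was called in control cells (0.79 ± 0.24) and gave 0.44 ± 0.18 in RNAi cells, under the fold required. The small translocon subunits behaved otherwise. SEC61G measured 13.1, 18.0 and 14.3 CPM in control nuclei and 17.9 CPM in control cytoplasm, which overlapped. RNAi cells gave 10.6, 11.7 and 11.2 CPM in nuclei against 19.3 and 19.2 CPM in cytoplasm, and SEC61G was called lower in the nucleus by −0.79 ± 0.15. SEC61B gave −0.23 ± 0.13 in control and −0.38 ± 0.10 in RNAi cells and was not called. Of the translocon-associated protein subunits, SSR1 was called higher in both (0.69 ± 0.19 and 0.73 ± 0.15) and SSR2 in control cells and not in RNAi cells (0.95 ± 0.11, against 0.32 ± 0.08 in RNAi cells). SSR3 (−0.17 ± 0.14 and −0.46 ± 0.11) and SSR4 (0.32 ± 0.13 and 0.00 ± 0.10) were called in neither. With an offset for average transcript length SSR1 gave 0.11 in control and 0.33 in RNAi cells and was no longer called. TRAM1, a membrane protein beside the channel, was called lower in the nucleus in control cells (−0.90 ± 0.18) and gave −0.43 ± 0.16 in RNAi cells. SEC62 and SEC63, partners of the channel in entry after translation, are described with the knockdown.

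None of the 4 signal peptidase genes was called in control cells, and SPCS1 alone was called higher in the nucleus in RNAi cells, by 0.52 ± 0.20. This call was lost without either of 2 libraries, since SPCS1 gave 0.22 without RNAi cytoplasmic replicate 1 and 0.49 without RNAi nuclear replicate 2. SPCS2, SPCS3 and SEC11A, the last of them a catalytic subunit, gave log2 fold changes from −0.17 to 0.31 in the 2 kinds of cells. All 4 proteins are small, and their coding sequences span 387 to 771 bases.

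Of the 7 oligosaccharyltransferase genes, 4 were called higher in the nucleus in both kinds of cells and 1 was called lower in both. RPN1 and RPN2, which encode the ribophorins, DDOST, and STT3A, the catalytic subunit that works beside the translocon, were those called higher, by 1.24 to 1.41 in control cells and by 0.84 to 1.15 in RNAi cells. RPN1 measured 908, 734 and 801 CPM in control nuclei against 307 CPM in control cytoplasm, and 645, 714 and 697 CPM against 342 and 366 CPM in RNAi cells. STT3B, the catalytic subunit of the other complex and the longest of the 7 in coding sequence (2478 bases), was called in RNAi cells (0.51 ± 0.13) and not in control cells (0.06 ± 0.16), a difference that did not itself pass the test (adjusted p = 0.18 for the change of ratio), and without RNAi cytoplasmic replicate 2 it gave 0.49. The small subunit DAD1 was called in neither (0.10 ± 0.16 and −0.27 ± 0.13). OST4, with a coding sequence of 111 bases the shortest member, measured 48.1, 63.9 and 67.0 CPM in control nuclei against 114 CPM in control cytoplasm. RNAi cells gave 71.6, 72.7 and 85.6 CPM against 115 and 154 CPM. Its nuclear libraries all lay below its cytoplasmic ones, and it was called lower in the nucleus by −0.93 ± 0.20 in control and −0.81 ± 0.16 in RNAi cells.

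The chaperones were mostly higher in the nucleus, with 5 of 6 called in RNAi cells and 4 of 6 in control cells. HSPA5 (BiP), the major ER chaperone of the HSP70 family at chr9:127997132-128003661 on GRCh37, measured 769, 517 and 621 CPM in control nuclei and 166 CPM in control cytoplasm. In RNAi cells it measured 547, 488 and 500.0 CPM in nuclei and 186 and 157 CPM in cytoplasm. The fractions did not overlap, and the log2 fold change was 1.94 ± 0.22 in control cells (adjusted p = 0.000111) and 1.57 ± 0.16 in RNAi cells (adjusted p = 2.69e-05). HSP90B1 (GRP94), the HSP90 of the ER at chr12:104323885-104347709, measured 130, 128 and 129 CPM in control nuclei and 48.4 CPM in control cytoplasm, a log2 fold change of 1.42 ± 0.14. In RNAi cells it measured 125, 108 and 124 CPM against 21.1 and 23.7 CPM, or 2.42 ± 0.12, the highest value of the 48 members in RNAi cells. DNAJB11, a co-chaperone of BiP, was called in both (0.92 ± 0.17 and 0.58 ± 0.13) and DNAJC3 in RNAi cells (1.08 ± 0.22) and not in control cells (0.29 ± 0.25), a difference that did not itself pass the test (adjusted p = 0.143). DNAJB11 fell under the fold required in RNAi cells, at 0.47, without RNAi cytoplasmic replicate 1. SDF2L1, another BiP partner, was called in neither. HYOU1, an exchange factor for BiP, stood at 2.65 to 3.71 CPM in nuclear and 0.852 to 0.935 CPM in cytoplasmic libraries, the lowest member, with log2 fold changes of 1.88 ± 0.36 and 1.80 ± 0.29. Only 3.7% of its counts came from transcripts annotated as coding, so its value does not stand for the full-length mRNA.

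Of the disulfide bond enzymes, PDIA3, PDIA4 and PDIA6 were called higher in the nucleus in both kinds of cells, and P4HB and ERP29 in control cells, where each had the higher ratio by the test of the ratio change (adjusted p = 0.0154 and 0.0349). PDIA4 measured 747, 612 and 680 CPM in control nuclei against 231 CPM in control cytoplasm, and 647, 617 and 639 CPM against 285 and 248 CPM in RNAi cells. Its log2 fold changes were 1.56 ± 0.15 and 1.25 ± 0.11. PDIA3 gave 1.61 ± 0.17 and 1.17 ± 0.13, and PDIA6 gave 1.34 ± 0.14 and 0.87 ± 0.11. P4HB (protein disulfide isomerase) gave 1.10 ± 0.13 and 0.33 ± 0.10, and ERP29 gave 1.00 ± 0.13 and 0.41 ± 0.10. ERO1A, the oxidase that reoxidises protein disulfide isomerase, differed from the group, at −0.10 ± 0.13 and −0.17 ± 0.11. In control cells it stood at 86.1 to 96.8 CPM in nuclei, a little below the 98.5 CPM of the cytoplasm.

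All 5 genes of glycoprotein folding and glucose trimming were called higher in the nucleus in both kinds of cells. GANAB, the catalytic subunit of glucosidase II at chr11:62392298-62414198, measured 1992, 1655 and 1747 CPM in control nuclei and 370 CPM in control cytoplasm. RNAi cells gave 1340, 1410 and 1350 CPM against 385 and 434 CPM. Its nuclear level was thus several-fold its cytoplasmic one in every pairing of libraries, with log2 fold changes of 2.28 ± 0.16 and 1.74 ± 0.12. PRKCSH, the other subunit of glucosidase II, gave 2.00 ± 0.14 and 0.84 ± 0.10. UGGT1, the folding sensor that puts glucose back on misfolded glycoproteins and the member with the longest coding sequence (4665 bases), gave 2.58 ± 0.33, the highest value of control cells, and 1.59 ± 0.24. CALR (calreticulin), the soluble lectin chaperone, measured 1340, 1261 and 1266 CPM in control nuclei, 490 CPM in control cytoplasm, 1183, 1355 and 1345 CPM in RNAi nuclei, and 587 and 654 CPM in RNAi cytoplasm. The fractions did not overlap, with log2 fold changes of 1.40 ± 0.14 and 1.06 ± 0.11. CANX (calnexin), its membrane-bound relative, gave 1.06 ± 0.13 and 0.94 ± 0.10.

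Both genes of ER-associated degradation were called higher in the nucleus in both kinds of cells. SEL1L, the adaptor of the ligase complex, measured 58.0, 43.8 and 53.0 CPM in control nuclei against 20.3 CPM in control cytoplasm and 45.9, 44.4 and 40.5 CPM against 15.5 and 11.9 CPM in RNAi cells. Its log2 fold changes were 1.34 ± 0.20 and 1.66 ± 0.16. SYVN1 (HRD1), the ubiquitin ligase itself, gave 1.32 ± 0.21 and 0.98 ± 0.15.

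The cargo and retrieval receptors, which shuttle between the ER and the Golgi, went in both directions. LMAN1 and LMAN2, lectins that carry glycoproteins, were called higher in the nucleus in control cells (0.62 ± 0.27 and 1.21 ± 0.13) and in RNAi cells (1.40 ± 0.23 and 0.53 ± 0.10). The LMAN1 call in control cells was kept in 3 of the 8 fits that each left out a library, and LMAN1 gave 0.40 without control nuclear replicate 1. The LMAN2 call in RNAi cells was lost without RNAi cytoplasmic replicate 1 (0.44). TMED2, a p24 protein of vesicle traffic at chr12:124069080-124083129, measured 84.5, 83.6 and 83.3 CPM in control nuclei against 162 CPM in control cytoplasm. In RNAi cells it measured 67.8, 71.9 and 68.1 CPM against 152 and 140 CPM. Every nuclear library lay below every cytoplasmic one, with log2 fold changes of −0.95 ± 0.11 and −1.08 ± 0.09, the lowest member of both. Its partner TMED10 gave 0.52 ± 0.19 in control cells, where it was called, and 0.13 ± 0.15 in RNAi cells. Without control nuclear replicate 1, TMED10 gave 0.37. KDELR2, a receptor that returns escaped ER proteins, measured 412, 294 and 367 CPM in control nuclei and 471 CPM in control cytoplasm. RNAi cells gave 291, 314 and 324 CPM against 621 and 587 CPM. KDELR2 was called lower in the nucleus in RNAi cells (−0.96 ± 0.13) and gave −0.40 ± 0.16 in control cells. KDELR1, at 1456 TPM (a level per transcript length) in control nuclei and 1190 TPM in RNAi cytoplasm among the most abundant members, was called in neither (0.29 ± 0.14 and −0.16 ± 0.11).

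Most members that were lower or not called in the nucleus had short coding sequences, with P4HB, ERO1A and TRAM1 among the exceptions. Coding length was not used to choose the members, and it was singled out after the values of 5 features had been seen. Across the 47 members with a usable coding transcript, the Spearman correlation of coding length with the log2 fold change of nucleus against cytoplasm was 0.84 in RNAi cells and 0.71 in control cells. The same value over all 13225 coding genes was 0.30 and 0.18, over the 4031 abundant coding genes with a usable transcript 0.43 and 0.32, over 122 other genes of the pathway 0.28 and 0.16, and over the 30 proteasome subunits 0.04 and 0.09. These are descriptions across genes, which share the same libraries. Taken against the mean level of the RNAi cytoplasmic libraries, each RNAi nuclear library alone gave 0.83 to 0.85. Each control nuclear library alone gave 0.59 to 0.76, taken against the single control cytoplasmic library. These ranges hold no spread of the cytoplasmic side. The relation was present within the 27 signal peptide genes (0.87 and 0.73) and within the 20 others (0.76 and 0.58). With counts from coding transcripts only it was 0.87 and 0.74. Of the other features, transcript length gave 0.55 and 0.34, final exon length 0.27 and 0.15, the adenine content of the first 60 coding bases -0.14 and -0.36, and mean CPM over all 48 members 0.11 and 0.45.

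By classes of coding length, the 15 longest members (1584 to 4665 bases) were all called higher in the nucleus in RNAi cells, and 14 of the 15 in control cells, with medians of 1.15 and 1.37. Among abundant coding genes of these lengths, 17.4% and 24.6% were called higher, with medians of −0.26 and −0.04. The 17 members of middle length (771 to 1530 bases) gave 11 and 12 called higher, with medians of 0.72 and 0.92, where abundant coding genes of like length gave 8.7% and 17.4%. The 15 shortest members (111 to 663 bases) gave 1 higher and 4 lower in RNAi cells and 2 higher and 2 lower in control cells, with medians of −0.23 and 0.10. Abundant coding genes of these lengths gave 68.9% and 47.6% lower, with medians of −0.74 and −0.49. In each of the 3 length classes the members' median lay above that of abundant coding genes of the same lengths, in both kinds of cells.

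**Figure D3:**
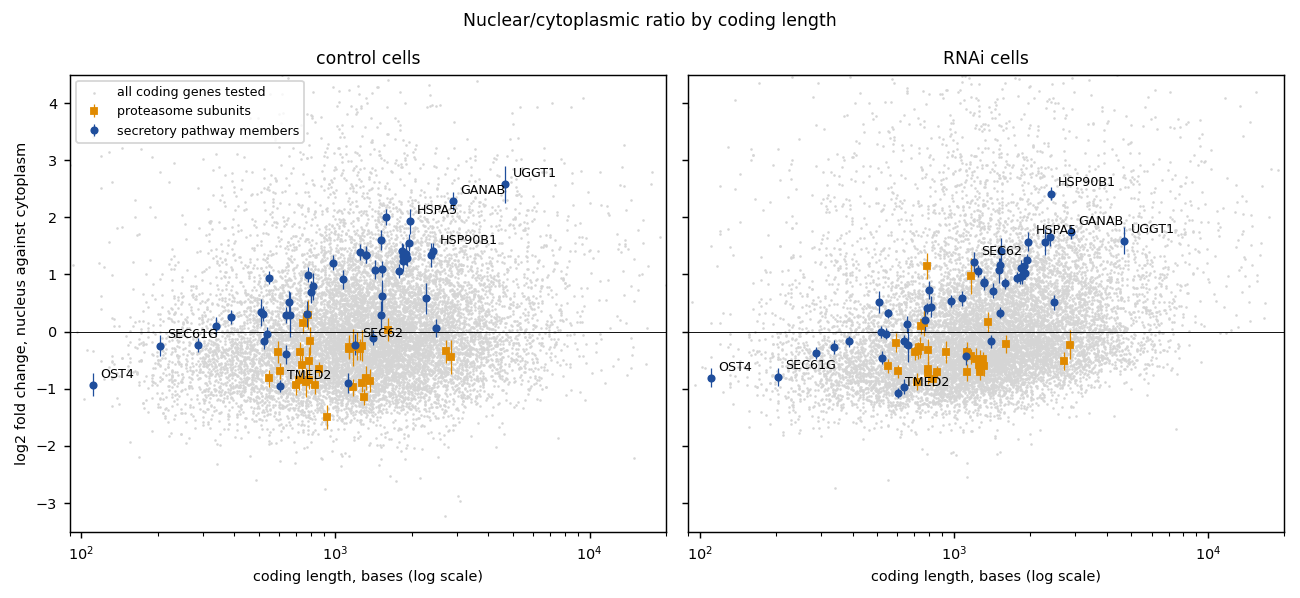
The log2 fold change of nucleus against cytoplasm (y axis) by coding length (x axis, bases, log scale) in control cells and in RNAi cells; blue circles are members, orange squares proteasome subunits (bars: standard error) and grey dots all coding genes tested, of which 95 and 122 lie outside the axes. The members rise from OST4 at 111 bases to GANAB and UGGT1 at 2898 and 4665 bases (Spearman 0.71 and 0.84), and the proteasome subunits show no such slope (0.09 and 0.04).

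Transcripts annotated as retaining an intron took 3.54% to 5.19% of the members' counts in nuclear libraries and 6.39% to 7.29% in cytoplasmic ones, whereas over all genes they took 4.33% to 5.92% in nuclear and 3.39% to 3.63% in cytoplasmic libraries. The nuclear excess of the members was therefore not accompanied by a larger share of such transcripts. Some of these transcripts are short and overlap coding exons. In STT3A and SPCS1, 43.0% and 33.1% of the counts came from transcripts annotated as coding, and the other members, HYOU1 apart, had 56.1% or more.

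The knockdown of WTAP and KIAA1429 changed few members within the nucleus. None was called higher in RNAi against control nuclei, where 2.47% of all genes were called higher, and 3 (6.25%) were called lower, where 2.42% were. DESeq2 also called none higher, and 1 member had an unadjusted p under 0.05 in that direction in edgeR's test. The median log2 fold change of the members was −0.23 beside 0.00 for all genes, and 42 of the 48 had a value below 0, as did 8110 of all 16181 genes. Such values were not particular to the members, since 25 of 30 proteasome subunits lay below 0 (median −0.16). Without control nuclear replicate 1, the members' median minus that of all genes was −0.142. In bulk libraries less RNA per cell and fewer cells that hold an RNA cannot be told apart. SSR3 measured 118, 114 and 103 CPM in control and 70.1, 74.0 and 66.5 CPM in RNAi nuclei, a log2 fold change of −0.67 ± 0.10 (adjusted p = 0.0169). TRAM1 measured 27.3, 31.5 and 28.4 CPM against 19.2, 16.0 and 21.7 CPM (−0.61 ± 0.14, adjusted p = 0.0461). CANX measured 483, 457 and 485 CPM against 352, 313 and 329 CPM (−0.52 ± 0.09, adjusted p = 0.0211). The control and RNAi nuclei did not overlap in any of these 3. The number called lower depended on single libraries. It was 5 without control nuclear replicate 1, 6 without control nuclear replicate 2, 1 without control nuclear replicate 3, 1 without RNAi nuclear replicate 2 and 0 without RNAi nuclear replicate 3. With the transcript length offset it was 0.

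In the cytoplasm, 4 members were called higher in RNAi cells (8.33%, where 10.4% of all genes were called higher) and 8 lower (16.7%, where 14.2% were). These shares are near those of all genes. Among the abundant coding genes 22.2% were called higher and 5.74% lower, with a median of 0.26 beside 0.10 over the members, so against genes of like abundance fewer members were higher and more were lower. The control side of this comparison is a single library, whose spread was taken from the other groups. With scaling by library size alone, which moved the median of all genes from 0.01 to −0.24, there was 1 higher and 12 lower, so the balance of directions rests on the scaling. The members called lower include both partners of the translocon in entry after translation. SEC62 measured 17.1 CPM in control cytoplasm and 4.99 and 5.47 CPM in RNAi cytoplasm, a log2 fold change of −1.71 ± 0.21 (adjusted p = 0.00122). SEC63 measured 20.75 CPM against 9.04 and 7.98 CPM (−1.28 ± 0.28, adjusted p = 0.0123). Both were lower in each RNAi library than in the control library. LMAN1 (−1.16 ± 0.28), HSP90B1 (−1.11 ± 0.14), TRAM1 (−1.08 ± 0.20), DNAJC3 (−1.08 ± 0.27), STT3B (−0.61 ± 0.17) and SEL1L (−0.56 ± 0.21) were also called lower. The SEL1L call was kept in 3 of the 8 fits that each left out a library, and SEL1L gave −0.44 without RNAi cytoplasmic replicate 2. The members called higher were PRKCSH (1.05 ± 0.13), LMAN2 (0.65 ± 0.14), P4HB (0.61 ± 0.14) and SSR2 (0.56 ± 0.12). P4HB and LMAN2 gave 0.47 and 0.50 without RNAi cytoplasmic replicate 2, which left 2 called higher, and P4HB gave 0.27 with the transcript length offset.

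The change of the nuclear/cytoplasmic ratio, which compares the ratio of RNAi cells with that of control cells, was called higher for 3 members (6.25%, where 10.4% of all genes were called higher) and lower for 7 (14.6%, where 7.87% were). Of the other abundant coding genes, 3.94% were called higher and 18.0% lower, so the members' share lowered lay near that of genes of like abundance. The median over the members was −0.33 beside −0.05 over all genes and −0.28 over the abundant coding genes. With scaling by library size alone, the median of all genes moved to 0.23 and that of the members to −0.04, with 6 members called higher and 1 lower. The direction of the change for the group as a whole therefore rests on the scaling, while the members stayed below the median of all genes under both.

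The 3 members whose ratio rose were SEC62, HSP90B1 and SEC63. SEC62 measured 15.9, 14.8 and 13.01 CPM in control nuclei against 17.1 CPM in control cytoplasm, and 13.6, 10.6 and 12.2 CPM against 4.99 and 5.47 CPM in RNAi cells. Its nuclear libraries lay below the control cytoplasmic library and above both RNAi cytoplasmic ones, and its ratio rose by 1.45 ± 0.25 on the log2 scale (adjusted p = 0.0085). HSP90B1 rose by 1.00 ± 0.17 (adjusted p = 0.00711), with nuclear levels of 128 to 130 CPM in control and 108 to 125 CPM in RNAi cells and the larger difference between siRNAs in the cytoplasm. SEC63 rose by 0.99 ± 0.34 (adjusted p = 0.087), a call kept in 2 of the 8 fits that each left out a library. With the transcript length offset all 3 kept their direction and none was called, at 1.24 for SEC62, 0.56 for HSP90B1 and 0.72 for SEC63.

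The 7 members whose ratio fell were PRKCSH, P4HB, LMAN2, SSR2, ERP29, GANAB and DDOST. All 7 were among the 28 members with a cleaved signal peptide, a list made after values had been seen, and 0 among the 20 others. That is 25% of the 28, where 18.0% of the abundant coding genes were called lower. Values below 0 were found in 23 of the 28 (median −0.347) and in 13 of the 20 others (median −0.205). They were also found in 3129 of the 4060 abundant coding genes (median −0.276) and in 8546 of all 16181 genes, so such values were not particular to the signal peptide genes. The largest fall was that of PRKCSH, which measured 1025, 1114 and 1049 CPM in control nuclei against 265 CPM in control cytoplasm, and 925, 1018 and 1013 CPM against 532 and 565 CPM in RNAi cells. Its control nuclei lay just above its RNAi nuclei, its RNAi cytoplasm lay well above its control cytoplasm, and the ratio fell by 1.16 on the log2 scale (SE 0.16, adjusted p = 0.00284). P4HB measured 1083, 1087 and 1039 CPM against 500 CPM in control cells and 899, 1005 and 978 CPM against 719 and 811 CPM in RNAi cells, a change of −0.77 ± 0.16 (adjusted p = 0.0154). With the transcript length offset P4HB gave −0.44 and was not called. LMAN2 gave −0.67 ± 0.16, SSR2 −0.63 ± 0.14 and ERP29 −0.59 ± 0.15. GANAB (−0.54 ± 0.18) and DDOST (−0.50 ± 0.17) lay near the fold required, and leaving out a library kept their calls in 2 and 1 of 8 fits. With scaling by library size alone PRKCSH was the 1 member still called lower. The number called lower was 13 without control nuclear replicate 2, 4 without control nuclear replicate 3 and 4 without RNAi cytoplasmic replicate 2, and the number called higher was 6 without control nuclear replicate 1. Coding length had a Spearman correlation of 0.10 with the change of ratio across the 47 members.

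**Figure D4:**
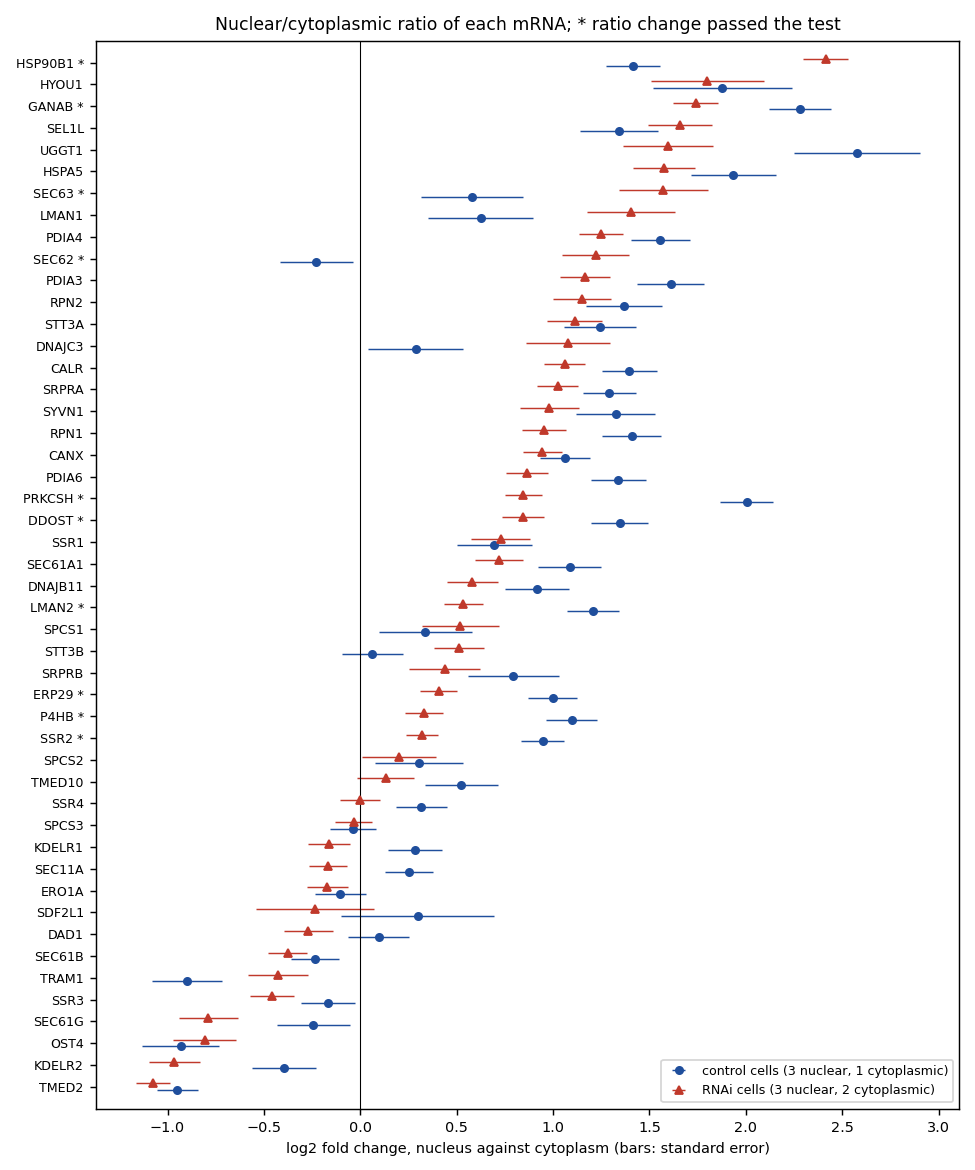
The log2 fold change of nucleus against cytoplasm (x axis, bars: standard error) of each member in control cells (blue circles) and RNAi cells (red triangles), ordered by the value in RNAi cells; an asterisk marks the 10 members whose change of ratio passed the test. SEC62 moves from −0.23 in control to 1.22 in RNAi cells and PRKCSH from 2.00 to 0.84, and most other members lie a little to the left in RNAi cells.

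Other genes of the pathway are set against the 32.9% and 28.0% of all genes called higher in the nucleus in RNAi and control cells, whose medians were 0.03 and 0.04. Of 22 further folding enzymes, 11 were called higher and 1 lower in the nucleus in RNAi cells (median 0.47) and 14 higher and none lower in control cells (median 0.66), with UGGT2 at 2.08 ± 0.29 in RNAi and PDIA5 at 1.74 ± 0.20 in control cells. Of 21 genes of further oligosaccharyltransferase subunits and lipid-linked glycan synthesis, 9 were higher and 1 lower in RNAi cells (median 0.08) and 11 higher and 1 lower in control cells (median 0.52), with MOGS, glucosidase I, at 2.16 ± 0.15 in control cells. The 16 further genes of ER-associated degradation gave 5 higher (31.2%, near the share of all genes) and 1 lower in RNAi cells and 7 higher and 2 lower in control cells. The 13 genes of the unfolded protein response gave 3 higher and 2 lower and 6 higher and 1 lower. In RNAi cells 10 of the 13 lay above 0, and the list ranged from −0.926 to 2.255 with a median of 0.20. ATF4, a transcription factor made in the cytosol, was the lowest of this list in RNAi cells, at −0.93 ± 0.10. The 10 genes of the ER membrane complex, which inserts membrane proteins, gave 4 higher and 3 lower and 3 higher and none lower, with the large subunit EMC1 at 1.80 ± 0.13 and 2.30 ± 0.17.

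The lists whose products are mostly made in the cytosol lay the other way, as did the abundant coding genes. Over all genes 24.9% in RNAi and 22.7% in control cells were called lower in the nucleus. Over the abundant coding genes 46.1% and 30.2% were, with medians of −0.45 and −0.21. None of the 6 SRP subunits was called higher in the nucleus, and 2 in RNAi cells and 5 in control cells were called lower, with SRP9 at −1.18 ± 0.10 and −1.58 ± 0.12. The 13 genes of the COPII coat and ER exit sites gave 1 higher and 5 lower in RNAi cells and 1 higher and 6 lower in control cells. Of 30 proteasome subunits, 2 were higher and 13 lower in RNAi cells (median −0.45) and none higher and 15 lower in control cells (median −0.55). In RNAi cells the shares lower of the proteasome (43.3%) and COPII (38.5%) lists thus did not exceed that of the abundant coding genes. In control cells they were 50% and 46.2%. The list of 21 COPI coat genes and further cargo receptors, which holds both cytosolic and membrane proteins, gave 4 higher and 7 lower and 6 higher and 6 lower. Within the members, too, the lists differed, and the signal peptidase genes and the cargo receptors had medians of 0.08 and −0.01 in RNAi cells. The difference between lists was described by these counts and was not tested.

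Calls of the ratio change in these lists went in different directions. The change was called higher for 3 of the 6 SRP subunits, 4 of the 13 COPII genes and 5 of the 30 proteasome subunits, with none lower in these lists. It was called lower for 5 of the 22 further folding enzymes and 5 of the 21 glycan synthesis genes, with 1 and none higher. Over all genes 10.4% were called higher and 7.87% lower, and over the abundant coding genes 3.94% and 18.0%. The shares lower of the folding enzymes (22.7%) and glycan synthesis genes (23.8%) thus lay near that of the abundant coding genes. Further ER-associated degradation factors gave 2 higher and 5 lower, with UBXN4 at 1.59 ± 0.26. The 13 mitochondrially encoded mRNAs gave none in either direction in edgeR's test, and 0 of them had an unadjusted p under 0.05. Their median was −0.67, and the part of this shift in the change of the members was not tested.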

How the data were processed

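Reads of the 9 libraries, made with the Lexogen SENSE mRNA-Seq kit, were trimmed with cutadapt and quantified with Salmon against Ensembl transcripts of hg19 by the authors (versions not given in the sources used here). The authors deposited, for each transcript and library, an estimated count without normalisation between libraries. The deposited TPM values are scaled to transcript length and to the same total per library, and entered the limma alternative, the choice of the most abundant transcript and 1 comparison of levels between genes.

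Transcripts were matched by identifier to GENCODE version 44 genes on GRCh37 (183122 of 215170, 85.1%, carrying 83.07% to 88.31% of a library's counts), and the estimated counts of a gene's transcripts were added up and rounded. Libraries were grouped by the fraction and siRNA in their labels. edgeR 4.0.16 in R 4.3.3 (TMM, quasi-likelihood test, 4 groups, no replicate block, 5 residual degrees of freedom) was fitted to 16181 genes that reached 10 estimated counts in 3 or more libraries. SE is the log2 fold change divided by the root of F. With 3 counts worth 0.19 to 0.303 CPM, depth limits no member other than HYOU1. The contrast of ratios and the thresholds (0.5 on the log2 scale, adjusted p 0.1) follow the study, and the same thresholds were applied to the other 4 comparisons. The code was tested on simulated counts. The alternatives were DESeq2 1.42.0 (test and size factors), library size only, no filter, a transcript length offset, a replicate block, limma 3.58.1 on log2(TPM + 1) and leaving out each library. Coding sequences were read from GRCh37 with pysam 0.24.0.

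Members and gene lists were chosen with earlier results of these data known, and the cleaved signal peptide genes were listed from general knowledge. That list, the set of abundant coding genes, the choice of coding length among 5 features and the requirement that a coding sequence fit within its deposited transcript (which leaves out HYOU1) were made after values had been seen. Per-library values are given for HSPA5, CALR, SEC61A1, both siRNA targets, the members at the ends of the nuclear/cytoplasmic order in RNAi cells, members called after RNAi (at most 6 a direction) and, chosen after their values were seen, RPN1 and PDIA4.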

Additional observations from a re-analysis of the deposited data

Results flagged for a closer look

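The effect of fractionation differed between control and RNAi cells, by edgeR's test of the change of the nuclear/cytoplasmic ratio, for 10 of the 48 members. Values are log2 changes of the ratio. It was higher in RNAi cells for SEC62 (1.448), HSP90B1 (1.000) and SEC63 (0.990). It was lower for PRKCSH (−1.158), P4HB (−0.768), LMAN2 (−0.673), SSR2 (−0.626), ERP29 (−0.592), GANAB (−0.542) and DDOST (−0.502). In all 10 the control cytoplasmic side is a single library, so error in that library and the siRNA cannot be told apart. The groups held at most 3 libraries, so no group was large enough to test for a library that stands apart.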

How the results depend on the processing

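Direction was kept for all 89 calls of a member in a comparison under every alternative that gave a value, and the calls themselves in 88 with DESeq2 size factors, 87 with DESeq2's test, 82 without a filter, 77 with library size only, 71 with the transcript length offset and 64 with limma. The numbers of members called higher in the nucleus stayed within 1.5 times under every alternative (24 to 34 in RNAi and 26 to 29 in control cells). With library size only, 1 member was lower in RNAi nuclei, 1 higher in RNAi cytoplasm, and the ratio change was higher for 6 and lower for 1. With the transcript length offset, 5 were lower in the control nucleus against cytoplasm, 0 lower in RNAi nuclei, and the ratio change was higher for 1 and lower for 4. With limma on log2(TPM + 1), 2 were lower in the nucleus in RNAi cells, 0 lower in RNAi nuclei, 0 higher in RNAi cytoplasm, and the ratio change was lower for 0. The median of the members minus that of all genes reversed for the nucleus in RNAi cells without a filter (−0.126, with 34607 genes tested, mostly low) and for RNAi cytoplasm with limma (−0.064). Leaving out single libraries gave 0 to 6 lower in RNAi nuclei, 2 to 6 higher in RNAi cytoplasm, and a ratio change higher for 2 to 6 and lower for 4 to 13. Without the control cytoplasmic library, 3 comparisons have no value.

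With the replicate number as a replicate block, the ratio change was higher for 6 members, and no other count of members moved by more than 1.5 times. Deviations of libraries with the same number correlated at 0.037 to 0.185, not all above 0.1, and the numbers were not taken to pair the libraries. This check cannot decide pairing, since a single control cytoplasmic library has no deviation from its group. Over all genes the ratio change was called higher for 2121 and lower for 1917 with the block, and for 1680 and 1273 without it. The cause of these differences was not tested.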

Other observations

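The members ranged widely in their level per transcript length. In the mean of the control nuclei, KDELR1 stood at 1456 TPM, CALR at 930 TPM and P4HB at 836 TPM, and DNAJC3 at 2.48 TPM. HYOU1 was the member with the fewest counts (mean 2.41 CPM over all libraries).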
